A study of Mus musculus with 7 samples.

Results

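The Bcl2 family of apoptosis regulators was followed through 7 RNA-seq libraries of mouse embryos from somatic cell nuclear transfer, as 10 genes of the 24319 in the deposited expression table. The genes were chosen by symbol: 4 pro-survival members (Bcl2l10, Mcl1, Bcl2l1 and Bcl2l2), 3 pore-forming effectors of death (Bax, Bok and Bak1) and 3 BH3-only members that trigger the effectors or block the pro-survival proteins (Bcl2l11, Bid and Pmaip1). All embryos came from B6D2F1 mice labelled wild type, had a cumulus cell nucleus placed in an enucleated oocyte, and had received mRNA of Kdm4a, a histone H3 lysine demethylase gene, so no group lacks the Kdm4a injection. Recipient oocytes were fresh for FOC+K (2 libraries), cryopreserved by vitrification in CROC+K (3 libraries), and cryopreserved with 10 µM melatonin treatment in the CROC+K+M group (2 libraries). Each library was made from a pool of 50 to 100 embryos and is labelled as the 2-cell stage, while the treatment protocol shared by all libraries also speaks of blastocysts. Comparing CROC+K with FOC+K asks how cryopreserved oocytes differ from fresh ones as recipients, and comparing CROC+K+M with CROC+K asks about melatonin. A vehicle is named in that protocol and not for any one library.

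Proteins of the Bcl2 family decide whether the outer membrane of the mitochondrion is breached. BAX and BAK1 form pores through which cytochrome c leaves the mitochondrion, which starts the caspase cascade. Pro-survival members such as BCL-XL (Bcl2l1) and MCL1 hold the effectors in check, and BH3-only members such as BIM (Bcl2l11), BID and NOXA (Pmaip1) relay stress by binding to either side. Oocytes and early embryos carry mRNA of these genes from the mother before the embryonic genome takes over.

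Bax, Bok and Bid had levels that set single libraries apart in the data below, while Bak1 was near the detection limit throughout. The 250 bases ahead of the RefSeq start site are shown for each of these genes. They are read 5′ to 3′ on the strand of the gene, with coordinates of build GRCm38.p6 (RefSeq), which is not the mm9 build of the expression data. Capitals mark the E-box CACGTG and the GC box GGGCGG or its reverse complement.
Bax (chr7:45466899-45467148, minus strand): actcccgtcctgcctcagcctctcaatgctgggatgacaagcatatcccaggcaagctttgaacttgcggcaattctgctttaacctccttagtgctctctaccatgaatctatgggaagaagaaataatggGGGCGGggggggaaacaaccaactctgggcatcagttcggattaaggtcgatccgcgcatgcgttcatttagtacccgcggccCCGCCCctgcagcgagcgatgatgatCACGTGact
Bok (chr1:93685325-93685574, plus strand): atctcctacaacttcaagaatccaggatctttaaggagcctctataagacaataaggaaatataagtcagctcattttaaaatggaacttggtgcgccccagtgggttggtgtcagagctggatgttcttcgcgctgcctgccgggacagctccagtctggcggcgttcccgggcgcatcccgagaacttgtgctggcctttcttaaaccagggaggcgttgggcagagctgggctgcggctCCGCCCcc
Bak1 (chr17:27028628-27028877, minus strand): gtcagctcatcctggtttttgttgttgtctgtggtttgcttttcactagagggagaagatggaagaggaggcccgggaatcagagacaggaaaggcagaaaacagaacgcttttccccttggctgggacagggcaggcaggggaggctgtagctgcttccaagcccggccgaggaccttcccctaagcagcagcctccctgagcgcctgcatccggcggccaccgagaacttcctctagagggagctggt
Bid (chr6:120916825-120917074, minus strand): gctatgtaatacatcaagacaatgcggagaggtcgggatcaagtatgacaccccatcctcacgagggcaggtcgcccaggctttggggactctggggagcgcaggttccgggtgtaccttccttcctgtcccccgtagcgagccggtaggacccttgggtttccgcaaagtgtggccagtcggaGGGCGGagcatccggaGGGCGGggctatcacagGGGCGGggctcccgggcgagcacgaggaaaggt
The Bax window held 1 CACGTG, 3 bases ahead of the start, and 2 GGGCGG, and the Bid window held 3 GGGCGG. The Bok window held 1 GGGCGG, and the Bak1 window held neither motif. Among all 32851 windows of the same length, CACGTG was present on either strand in 6.02% and GGGCGG in 32.7%. Of 11 windows that matched 8 of the members, 1 held CACGTG, 7 held GGGCGG, 2 held CCAAT and 1 (Bax) held a p53 half-site, and no matches overlapped. CCAAT was present in 33.8% and the p53 half-site in 7.13% of all windows, on either strand. The motifs were chosen after the sequences had been seen, and a match describes letters and not a bound site. Bcl2l10 and Pmaip1 are named only, without a window.

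Levels are FPKM, the number of sequenced fragments scaled to transcript length and to the mapped fragments of the library, which allows genes to be set side by side. Summed FPKM ran from 552356 to 1018000 and 10496 to 11518 genes reached an FPKM of 1 per library. Kdm4a, which includes the injected mRNA, ranged from 497 to 4949 FPKM and was highest in CROC+K 2 and 3. CROC+K+M 1 stood apart: its log2 levels correlated with those of the other libraries across genes at 0.851 to 0.875, against up to 0.974 among the others. All 14 genes of a trophectoderm and blastocyst list reached an FPKM of 1 there, with a summed level of 33906 FPKM, against 6 to 8 genes and 66.1 to 158.5 FPKM in the other 6 libraries. Cdx2, a defining trophectoderm gene, was 6.97 FPKM in CROC+K+M 1 and listed at 0 in the other 6. All 12 oocyte and maternal genes passed an FPKM of 1 in every library (summed level 4303 to 7031 FPKM), the 12 genes of a middle 2-cell stage list summed to 48.7 to 638.6 FPKM, and a cumulus cell list of 15 genes summed to 14.5 to 20.5 FPKM with Ptx3 listed at 0 throughout. Where leaving CROC+K+M 1 out moved a fitted value of a member by over 1.5 times, the value without it is given; the melatonin group is then 1 library, taken to vary like the others.

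Fold changes are limma log2 ratios of FPKM + 1 with their standard error (SE) and 95% interval, with Benjamini-Hochberg adjustment of p over 12271 genes; the p-values measure the spread between these libraries, since the labels do not say whether replicates came from separate cultures or days. Of the 10 members, 8 were tested. Bcl2l2 and Bak1 did not reach an FPKM of 1 in at least 2 libraries and are described by level. No member passed an adjusted p of 0.05 in any of the 3 comparisons, nor did any other gene in limma (0.0% of 12271 in each; 269, 1281 and 793 had an unadjusted p under 0.05 for CROC+K versus FOC+K, CROC+K+M versus CROC+K and CROC+K+M versus FOC+K). In bulk libraries, fewer cells of a type and less RNA per cell cannot be told apart.

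**Figure D1:**
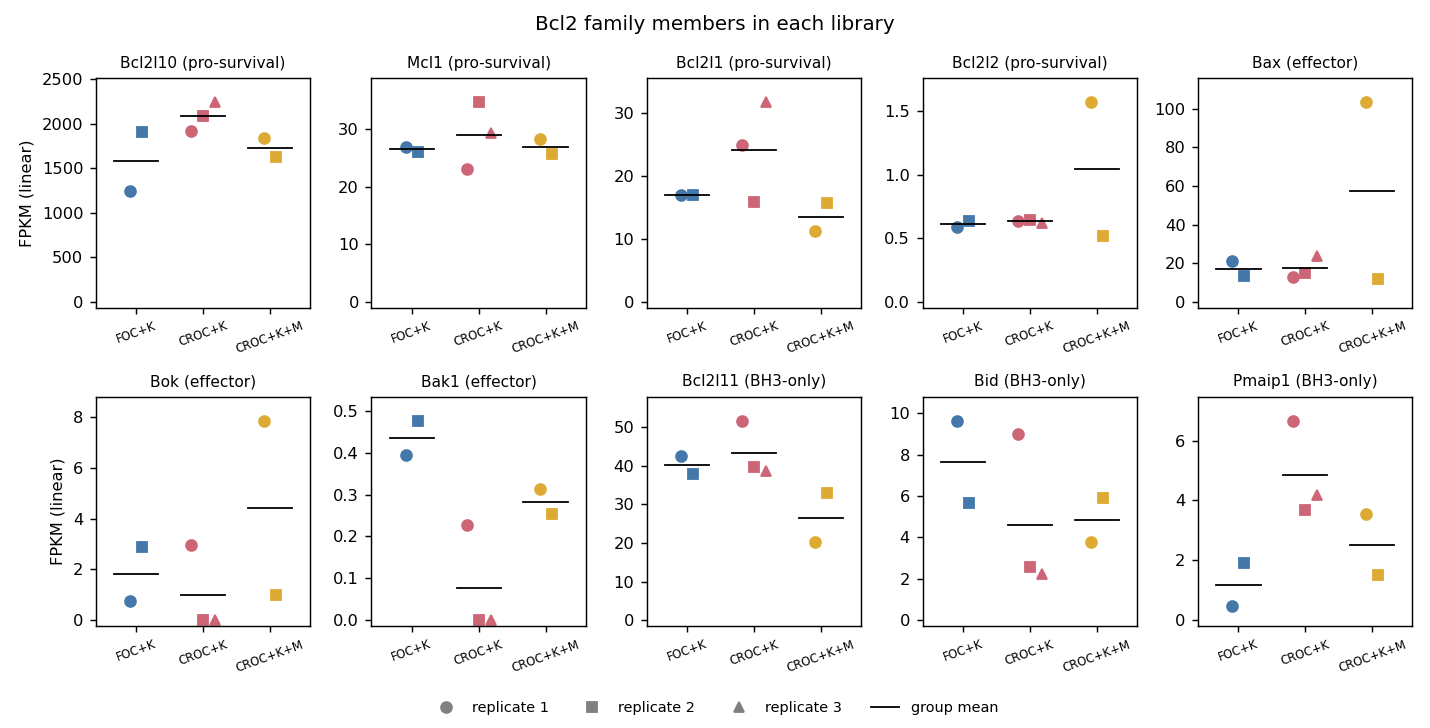
FPKM of the 10 members in each library, 1 panel a gene with its own linear axis starting near 0, by group on the x axis; points are libraries and horizontal bars are group means. Bax sits at 103.4 in CROC+K+M 1 and at 11.8 to 23.8 in the other 6 libraries, and Bak1 and Bok are at 0 in CROC+K 2 and 3.

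Bcl2l10 was the most abundant member by a wide margin. It encodes a Bcl2-like protein of the oocyte and ovary, also called DIVA or BOO, that has been given both pro-survival and pro-death roles in the mouse. FPKM was 1241 and 1907 FPKM in FOC+K, 1920, 2089 and 2238 in CROC+K, and 1839 and 1623 in CROC+K+M, which placed it between rank 29 and rank 80 of 23043 genes. CROC+K lay above both other groups, although CROC+K 1 exceeded FOC+K 2 by little, and the lower FOC+K library lay apart from its partner. The log2 difference of CROC+K from FOC+K was 0.43 ± 0.29 (SE; 95% interval -0.24 to 1.11), with an adjusted p of 0.9996 in limma, and it was 0.12 without FOC+K 1 and 0.74 without FOC+K 2. For CROC+K+M versus CROC+K it was -0.27 ± 0.29 (adjusted p = 0.763, limma). CROC+K+M versus FOC+K gave 0.17 ± 0.32 (adjusted p = 0.938, limma), 0.08 without CROC+K+M 1 and -0.14 without FOC+K 1.

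Mcl1, a short-lived pro-survival protein gene that early embryos need, was the steadiest member. Its levels were 26.9 and 26.1 FPKM in FOC+K, 23.1, 34.7 and 29.4 in CROC+K, and 28.3 and 25.6 in CROC+K+M. The 3 groups overlapped, and the highest library was 1.5 times the lowest. The log2 differences were 0.11 ± 0.28 (SE) for CROC+K versus FOC+K, -0.09 ± 0.28 for CROC+K+M versus CROC+K and 0.02 ± 0.31 for CROC+K+M versus FOC+K, with limma adjusted p of 0.9996, 0.931 and 0.993. Without CROC+K+M 1 the last 2 were -0.15 and -0.05. The sign of the first turned under equal library sums (-0.22) and with a term for ribosomal precursor RNA (-0.19). The latter value sets CROC+K 1 alone against the FOC+K libraries.

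Bcl2l1, which encodes BCL-XL, was at 17.0 and 16.9 FPKM in FOC+K. The CROC+K libraries held 25.0, 15.9 and 31.7 FPKM, and the CROC+K+M libraries 11.2 and 15.7 FPKM. Both melatonin libraries lay below every other library, although CROC+K 2 exceeded the nearer of them by little. Between CROC+K+M and CROC+K the log2 difference was -0.77 ± 0.36 (SE; 95% interval -1.60 to 0.06; adjusted p = 0.498, limma), and it was -0.55 without CROC+K+M 1. CROC+K versus FOC+K gave 0.44 ± 0.36 (interval -0.39 to 1.26; adjusted p = 0.9996, limma), which was 0.70 without CROC+K 2, 0.22 without CROC+K 3 and 0.11 under equal library sums.

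Bcl2l2, which encodes BCL-W, was the rarest pro-survival member. Levels were 0.586 and 0.638 FPKM in FOC+K, 0.637, 0.645 and 0.620 in CROC+K, and 1.57 and 0.518 in CROC+K+M. Low FPKM values of a gene were whole multiples of 1 step per library, and taking a step as 1 fragment these levels rest on 8 to 12 fragments in 6 libraries and 27 in CROC+K+M 1. Exact Poisson 95% intervals, which cover counting error only, were 1.03 to 2.29 FPKM in CROC+K+M 1 and 0.258 to 0.926 in CROC+K+M 2. The intervals of the FOC+K and CROC+K libraries, with upper ends at 1.114 to 1.185 FPKM, all overlapped that of CROC+K+M 1.

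Among the effectors, Bax was the most abundant and had the widest range in FPKM. Its levels were 21.0 and 13.3 FPKM in FOC+K, 13.0, 15.0 and 23.8 in CROC+K, and 103.4 and 11.8 in CROC+K+M. The melatonin pair thus held both the highest and the lowest library of the 7, and CROC+K+M 1 was 4.35 times the highest of the others. A level at least 4 times the highest other in that library was found for 4.37% of tested genes, and Bax was the 1 member among 8. The log2 difference of CROC+K+M from CROC+K was 1.04 ± 0.79 (SE; 95% interval -0.80 to 2.89; adjusted p = 0.659, limma). It was -0.47 without CROC+K+M 1 and 2.56 without CROC+K+M 2 (adjusted p = 0.0228, limma), a call that rests on CROC+K+M 1 alone. CROC+K+M versus FOC+K gave 1.04 ± 0.87 (adjusted p = 0.837, limma) and -0.47 without CROC+K+M 1. That library is the one with all 14 trophectoderm and blastocyst genes at an FPKM of 1 or more, and their part in the Bax level was not tested. Between CROC+K and FOC+K, whose libraries overlapped throughout, the log2 difference was -0.0033 ± 0.79 (adjusted p = 0.9996, limma).

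Bok encodes a BCL2-related effector that is known to act without the usual restraint by pro-survival proteins. It was at 0.759 and 2.89 FPKM in FOC+K, 2.97, 0 and 0 in CROC+K, and 7.85 and 0.976 in CROC+K+M. In fragments of 1 step each, these were 4 and 21, then 18, 0 and 0, then 52 and 8. For the 2 CROC+K libraries at 0, 3 fragments would correspond to 0.500 and 0.534 FPKM, so a count of 0 there is compatible with a level up to about those values. The fitted log2 difference of CROC+K+M from CROC+K was 1.40 ± 0.85 (SE; adjusted p = 0.582, limma), 0.32 without CROC+K+M 1 and 3.22 with a pseudocount of 0.1 in place of 1. CROC+K versus FOC+K gave -0.72 ± 0.85 (adjusted p = 0.9996, limma), -2.36 with the pseudocount of 0.1, and -1.39 to -0.15 leaving out 1 library (CROC+K 1 and FOC+K 2). With a term for ribosomal precursor RNA it was 0.60, a value that sets CROC+K 1 alone against the FOC+K libraries. CROC+K+M versus FOC+K gave 0.68 ± 0.93 (adjusted p = 0.907, limma), and -0.41 without CROC+K+M 1. The size of a fitted difference for Bok thus depends on the pseudocount.

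Bak1, the partner of BAX in pore formation, was near the detection limit in every library. It was at 0.393 and 0.476 FPKM in FOC+K, 0.228, 0 and 0 in CROC+K, and 0.313 and 0.253 in CROC+K+M. These levels stand for 3 and 5, then 2, 0 and 0, then 3 and 3 fragments. The CROC+K libraries lay below all others, but 3 fragments in the libraries at 0 would be 0.346 and 0.370 FPKM, so a difference from the levels of most other libraries was not detectable at this depth. Among 13102 genes above 0 in the other 5 libraries, 2.74% were listed at 0 in both CROC+K 2 and CROC+K 3, and Bok and Bak1 were among them.

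The BH3-only member Bcl2l11, the gene of BIM, was the highest of the 6 pro-death members in 6 of the 7 libraries, with Bax above it in CROC+K+M 1. It stood at 42.6 and 37.7 FPKM in FOC+K, 51.6, 39.7 and 38.5 in CROC+K, and 20.1 and 32.9 in CROC+K+M. Both melatonin libraries were lower than the other 5. Between CROC+K+M and CROC+K the log2 difference was -0.71 ± 0.31 (SE; 95% interval -1.43 to 0.0013), with an unadjusted p of 0.0503 and an adjusted p of 0.479 in limma. Without CROC+K+M 1 it was -0.37. CROC+K and FOC+K overlapped, at a log2 difference of 0.10 ± 0.31 (adjusted p = 0.9996, limma) that was -0.24 under equal library sums.

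Bid, which links death receptors to the mitochondrion once a caspase has cleaved its product, was at 9.63 and 5.67 FPKM in FOC+K. Its CROC+K libraries were at 8.98, 2.58 and 2.23 FPKM, and the CROC+K+M pair at 3.77 and 5.92 FPKM. CROC+K 2 and 3 were the lowest libraries for Bid as they were for Bok, while CROC+K 1 was close to the highest. Among tested genes, 12.9% had CROC+K 2 and 3 below the other 5 libraries, and 11.3% had both above, as Mcl1 and Bcl2l10 did. Those libraries also had the highest Kdm4a, at 4051 and 4949 FPKM against 497 in CROC+K 1, and less ribosomal precursor RNA (Rn45s), at 266 and 237 FPKM against 2114, while the CROC+K+M libraries, with more Bid, had 224 and 175; the part of either in these levels was not tested. Between CROC+K and FOC+K the log2 difference was -0.79 ± 0.55 (SE, 95% interval -2.07 to 0.49, adjusted p = 0.9996 in limma), and 0.25 with a term for Rn45s. With that term, CROC+K 1 alone is set against the FOC+K libraries. Leaving out 1 library gave -0.45 (without FOC+K 1) to -1.31 (without CROC+K 1; unadjusted p = 0.0150, adjusted p = 0.355, limma), with -0.49 without CROC+K 3. CROC+K+M versus CROC+K gave 0.24 ± 0.55 (adjusted p = 0.900, limma) and 0.51 without CROC+K+M 1, and CROC+K+M versus FOC+K gave -0.55 ± 0.60 (adjusted p = 0.880, limma) and -0.28 without it.

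Pmaip1, the gene of NOXA, which binds MCL1, was the member with the widest relative range among those detected in all libraries. Its levels were 0.485 and 1.90 FPKM in FOC+K, 6.66, 3.67 and 4.19 in CROC+K, and 3.54 and 1.49 in CROC+K+M, which corresponds to 5 and 27, then 79, 43 and 46, then 46 and 24 fragments. Every CROC+K library lay above every library of the other groups, if only just above CROC+K+M 1. The Poisson 95% intervals of the FOC+K libraries, 0.157 to 1.13 and 1.25 to 2.76 FPKM, cover counting error only. The lowest interval in CROC+K reached from 2.65 to 4.94 FPKM, overlapping the upper of these by little. The log2 difference of CROC+K from FOC+K had a 95% interval of 0.37 to 2.55 and an unadjusted p of 0.0151, with an adjusted p of 0.9996 in limma. Without FOC+K 1 the difference was 0.98 (unadjusted p = 0.150, limma). CROC+K+M versus CROC+K gave -0.76 ± 0.47 (SE; interval -1.85 to 0.33; adjusted p = 0.587, limma), -1.19 without CROC+K+M 1 and -0.33 without CROC+K+M 2. CROC+K+M versus FOC+K gave 0.70 ± 0.51 (SE; adjusted p = 0.816, limma) and 0.27 without CROC+K+M 1.

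**Figure D2:**
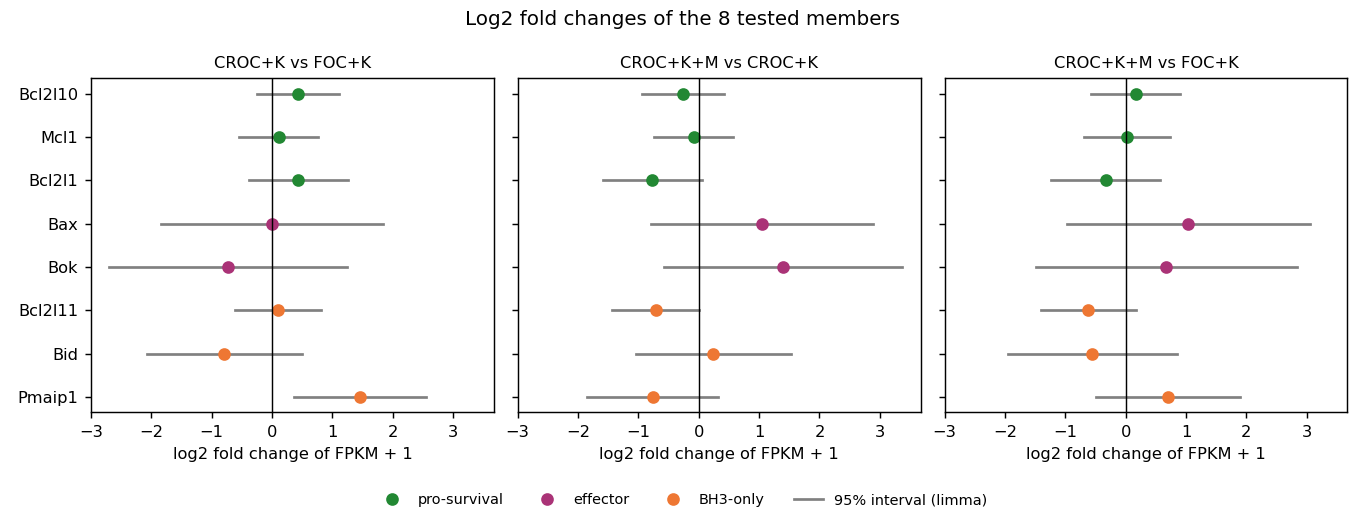
Log2 fold change of FPKM + 1 with 95% interval from limma for the 8 tested members in the 3 comparisons, all 7 libraries in 1 fit. The intervals include 0 except that of Pmaip1 for CROC+K versus FOC+K (0.37 to 2.55), which did not pass adjustment over all genes.

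Read across the comparisons, 5 of 8 tested members were higher and 3 lower in CROC+K than in FOC+K, with a median log2 difference of 0.10, beside -0.03 over all tested genes. Under equal library sums the split was 3 higher and 5 lower. An unadjusted p under 0.05 was found for 1 of 8 (Pmaip1) and for 2.19% of all tested genes. The groups did not overlap for 2 of 8, Bcl2l10 and Pmaip1, both higher in CROC+K, beside 9.66% of all genes that were higher in this way; 0 members and 9.47% of all genes were lower in it.

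For CROC+K+M versus CROC+K, 3 of 8 were higher and 5 lower, with a median of -0.18 beside 0.06 over all genes; without CROC+K+M 1, 2 were higher and 6 lower, with a median of -0.37 beside 0.04. No member had an unadjusted p under 0.05 in limma, beside 10.4% of all genes. Without overlap, 4 of 8 were lower, namely Bcl2l1, Bcl2l10, Bcl2l11 and Pmaip1, beside 11.2% of all genes, and 0 were higher, beside 12.3%. Marker lists shifted in this comparison too. Of 12 oocyte and maternal genes 10 were lower, 6 of them without overlap and 3 at an unadjusted p under 0.05 in limma (median -0.32). All 9 tested genes of the middle 2-cell stage list were lower (median -1.09), 1 without overlap and 1 at an unadjusted p under 0.05 in limma. The summed level of that list was 48.7 FPKM in CROC+K 1, the lowest library. It was 452 and 638.6 in CROC+K 2 and 3, and 190 and 70.0 in CROC+K+M. No gene of either list passed adjustment, and their part in the members' levels was not tested. The 4 members without overlap are 2 pro-survival and 2 BH3-only genes, so they do not fall on one side of the family. Bcl2l10 and Pmaip1 are also the pair without overlap in CROC+K versus FOC+K, and both comparisons use the same CROC+K libraries.

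For CROC+K+M versus FOC+K, 5 of 8 were higher and 3 lower (median 0.09, beside 0.04 over all genes), and 2 higher and 6 lower without CROC+K+M 1. No member had an unadjusted p under 0.05 in limma, beside 6.46% of all genes. The groups did not overlap for Bcl2l1 and Bcl2l11, both lower with melatonin, beside 19.8% of all genes, and 0 members were higher, beside 21.3%. Their log2 differences were -0.33 ± 0.39 (SE) and -0.62 ± 0.34, with limma adjusted p of 0.887 and 0.777, and they were -0.11 and -0.28 without CROC+K+M 1.

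Summed by class, pro-survival FPKM outweighed pro-death FPKM (effectors and BH3-only members) in every library, at 1286 to 2299 against 53.3 to 139. Bcl2l10 made up 96.5% to 97.8% of the pro-survival sum. The log2 ratio of pro-death to pro-survival was -4.54 ± 0.62 (SD, n = 2) in FOC+K, followed by -4.92 ± 0.31 (SD, n = 3) for CROC+K and -4.36 ± 0.85 (SD, n = 2) in CROC+K+M. These means differed by less than the largest spread within a group, and the single CROC+K+M 2 library, at -4.97, lay below the CROC+K mean. Leaving out Bcl2l10 turned the sign of the ratio in every library, to 0.75 and 0.51 for FOC+K, 0.78, 0.25 and 0.16 in CROC+K, and 1.76 and 0.35 in CROC+K+M. The statement that pro-survival mRNA prevails therefore depends on the class given to Bcl2l10.

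**Figure D3:**
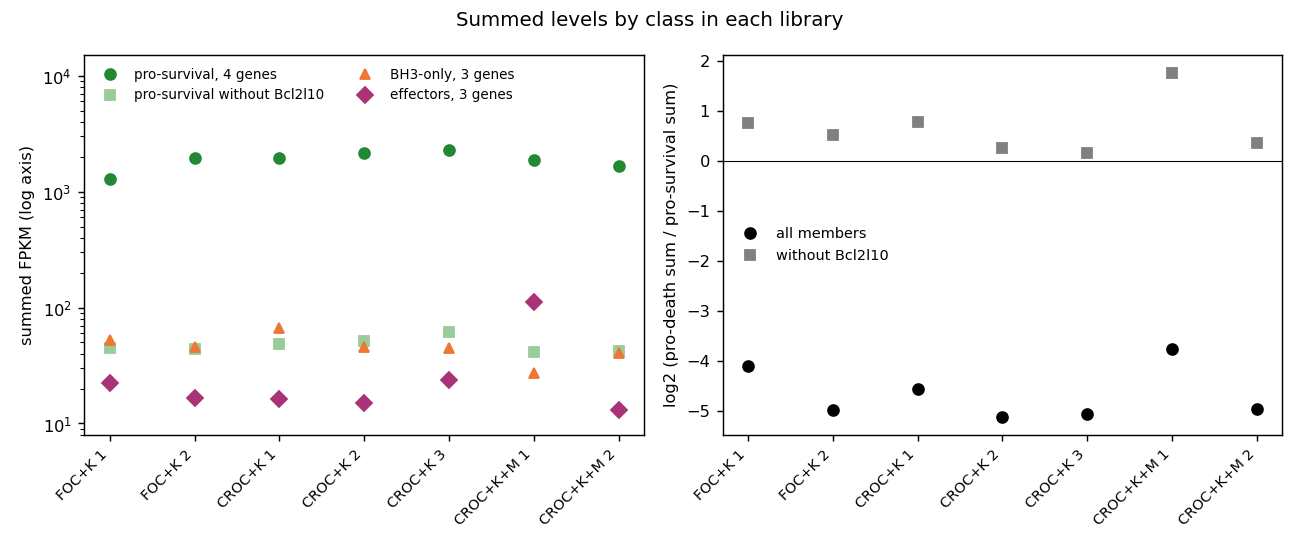
Summed FPKM by class in each library and the log2 ratio of pro-death to pro-survival sums with and without Bcl2l10; points are libraries, by group. With Bcl2l10 the log2 ratio lies between -5.13 and -3.76, and without it between 0.16 and 1.76, with CROC+K+M 1 the highest library in both.

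Bcl2l11 made up most of the pro-death sum in 6 libraries and not in CROC+K+M 1. It contributed 56.1% to 65.1% in the 6 and 14.5% in CROC+K+M 1, where Bax contributed 74.4%. In the 6 the Bax share varied more, from 15.6% in CROC+K 1 to 34.6% in CROC+K 3. The ratio of Bax to Bcl2l1, often used as a readout of the balance between death and survival, was 1.24 and 0.787 for FOC+K, 0.520, 0.944 and 0.750 in CROC+K, and 9.22 and 0.753 in CROC+K+M. Outside CROC+K+M 1 the groups overlapped in that ratio. The 3 BH3-only members summed to 52.7 and 45.3 FPKM in FOC+K, 67.2, 45.96 and 44.97 in CROC+K, and 27.4 and 40.3 in CROC+K+M, where both libraries were below all others. That sum leaves out Bik, a BH3-only gene outside the members. Bik was at 64.8 and 86.4 FPKM in FOC+K and 71.6 and 105.4 in CROC+K+M, so the melatonin libraries were not the lowest for it.

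A list of 15 other Bcl2 family genes held 8 tested genes, of which 5 were higher and 3 lower in CROC+K than in FOC+K, with a median log2 difference of 0.03, and none passed an adjusted p of 0.05. Over all tested genes 47.3% were higher in CROC+K than in FOC+K, with a median of -0.03. For CROC+K+M versus CROC+K the counts were 5 and 3 with a median of 0.42, beside 54.1% higher and a median of 0.06 over all genes. For CROC+K+M versus FOC+K the counts were 6 and 2 with a median of 0.36, beside 52.9% higher and a median of 0.04. Bnip3, a mitophagy receptor related to the BH3-only proteins, was the most abundant at 229 to 452 FPKM. Bik, a BH3-only gene of the endoplasmic reticulum, was at 64.8 and 86.4 FPKM in FOC+K, 91.0, 114.2 and 106.5 in CROC+K, and 71.6 and 105.4 in CROC+K+M, above Bcl2l11 in every library. Bad, a BH3-only gene whose product is controlled by survival kinases, was at 56.0 FPKM in CROC+K+M 1 and at 0.583 to 2.16 FPKM elsewhere, a ratio of 26.0 to the highest other library. Its log2 difference of CROC+K+M from CROC+K was 2.42 ± 1.24 (SE; adjusted p = 0.527, limma), and -0.08 without that library.

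The remaining tested relatives were Bnip3l at 48.5 to 71.3 FPKM, Bcl2l14 at 3.57 to 12.3, Bcl2l13 at 5.09 to 7.96, Bcl2l12 at 2.87 to 13.2 and Bcl2l15 at 0 to 4.73. Bcl2 itself was at 0.547 and 0.0997 FPKM in FOC+K, 0.267, 0 and 0 in CROC+K, and 0.570 and 1.46 in CROC+K+M. Bbc3, the p53 target gene of PUMA, stood for 7 and 7 fragments in FOC+K, 2, 0 and 1 in CROC+K, and 2 and 16 in CROC+K+M. Bmf, a BH3-only gene, stood for 7 and 16, then 11, 1 and 0, then 5 and 26 fragments. Both were thus at most 1 fragment in CROC+K 2 and 3, the libraries where Bok and Bak1 were listed at 0. Bcl2a1a and Bcl2a1b, copies of a multigene family whose fragments the authors' counting could split, were listed at 0 in all libraries. Bcl2, Bbc3, Bmf and the Bcl2a1 genes lie under the level fixed for naming and were picked out after their values were seen.

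**Figure D4:**
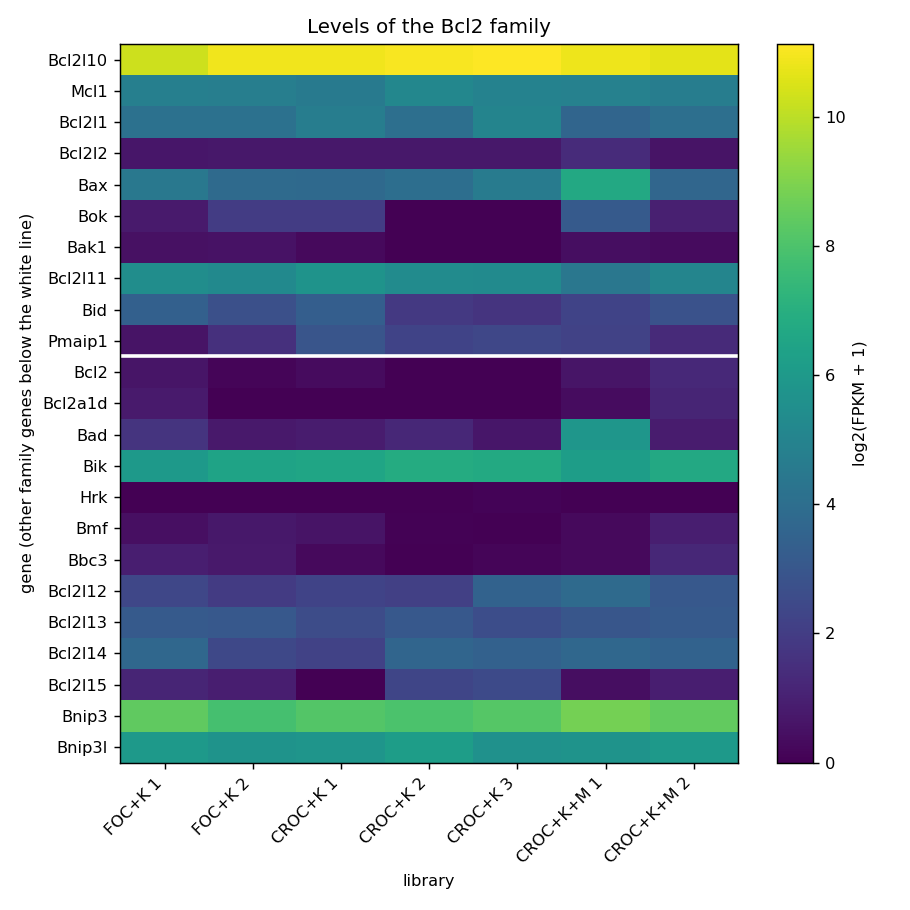
Level of each member and of the other Bcl2 family genes in the 7 libraries, as log2(FPKM + 1), with genes in rows by role and libraries in columns by group. Bcl2l10 is the highest row throughout, Bnip3 the next, and Bax and Bad are highest in CROC+K+M 1.

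Downstream and alongside the family, 24 of 25 genes of the mitochondrial death pathway were tested. In CROC+K versus FOC+K, 12 were higher and 12 lower (median log2 difference 0.05), 2 had an unadjusted p under 0.05 and none passed adjustment in limma. Of all tested genes 47.3% were higher and 2.19% had such a p, with a median of -0.03. Cycs, the gene of cytochrome c, which the effector pores release, was at 54.6 and 50.7 FPKM in FOC+K, 70.7, 104.3 and 94.95 in CROC+K, and 216.6 and 107.2 in CROC+K+M. The 3 groups did not overlap. The log2 difference of CROC+K+M from FOC+K was 1.52 ± 0.39 (SE, adjusted p = 0.736 in limma), and 1.01 without CROC+K+M 1. Without overlap, 5 of 24 pathway genes and 9.66% of all tested genes were higher in CROC+K than in FOC+K. For CROC+K+M versus FOC+K these were 7 of 24 and 21.3%. Diablo, which encodes an antagonist of caspase inhibitors, was at 76.7 and 76.9 FPKM in FOC+K and at 100.8 to 126.3 FPKM in the other 5 libraries. Casp8, the initiator caspase that cleaves BID, was at 3.43 and 2.03 FPKM in FOC+K and 3.92, 6.61 and 10.7 in CROC+K.

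For CROC+K+M versus CROC+K, 16 pathway genes were higher and 8 lower (median 0.24), 3 had an unadjusted p under 0.05 and none passed in limma, beside 54.1% higher, 10.4% with such a p and a median of 0.06 over all genes. Mtch2, a mitochondrial outer membrane protein that receives truncated BID, was at 16.7 and 20.02 FPKM in FOC+K, 26.5, 14.4 and 22.9 in CROC+K, and 114.5 and 45.01 in CROC+K+M. Both melatonin libraries lay above the other 5, with a log2 difference from CROC+K of 1.75 ± 0.45 (SE; adjusted p = 0.408, limma) and 1.09 without CROC+K+M 1. Vdac1, an outer membrane channel, was at 94.0, 83.7 and 105.8 FPKM in CROC+K and 67.4 and 49.8 in CROC+K+M. Naip1, of the family of inhibitor of apoptosis proteins, was at 3.76, 3.31 and 3.23 FPKM in CROC+K against 0.296 and 0.807 in CROC+K+M. For CROC+K+M versus FOC+K, 15 were higher and 9 lower (median 0.28), with 3 at an unadjusted p under 0.05 and none past adjustment in limma, beside 52.9% higher, 6.46% with such a p and a median of 0.04 over all genes. The same shares over all genes stand beside the counts of regulators that follow.

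Of 32 regulators of family members, 29 were tested, with 17 higher and 12 lower in CROC+K than in FOC+K (median 0.11), 3 at an unadjusted p under 0.05 and none past adjustment in limma. Trp53, which drives Pmaip1, Bax and Bbc3, was at 8.90 and 9.52 FPKM in FOC+K, 14.2, 17.1 and 21.6 in CROC+K, and 11.1 and 7.94 in CROC+K+M. CROC+K lay above all libraries of both other groups, as it did for Pmaip1, while Bax overlapped between the groups. For Bbc3, CROC+K lay below FOC+K but overlapped the melatonin pair. CROC+K 1 was at 0.231 FPKM and CROC+K+M 1 at 0.211, each standing for 2 fragments. The part of Trp53 in these levels was not tested, and the share of all genes with its order of groups was not counted. Ddit3, the gene of CHOP, a stress factor of the endoplasmic reticulum, was at 33.8 and 32.2 FPKM in FOC+K and 57.8, 104.2 and 149.4 in CROC+K, then 160.7 and 38.3 in CROC+K+M. Its log2 difference of CROC+K from FOC+K was 1.52 ± 0.62 (SE; unadjusted p = 0.0411, adjusted p = 0.9996, limma). Pim3, a kinase gene whose family phosphorylates BAD, was at 13.5 and 12.1 FPKM in FOC+K and 9.58, 3.39 and 3.22 in CROC+K.

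In CROC+K+M versus CROC+K, 17 regulators were higher and 12 lower (median 0.06), with 1 at an unadjusted p under 0.05 and none past adjustment in limma. Usp9x, a deubiquitinase that stabilises MCL1, was at 21.8, 16.6 and 14.5 FPKM in CROC+K and 13.1 and 10.6 in CROC+K+M, at a log2 difference of -0.52 ± 0.30 (SE; adjusted p = 0.562, limma). Bag1, which encodes a BCL2-binding co-chaperone, was 0.73 ± 0.45 higher on the log2 scale (adjusted p = 0.590, limma) and 0.11 without CROC+K+M 1. In CROC+K+M versus FOC+K, 20 were higher and 9 lower (median 0.15), with 1 at an unadjusted p under 0.05 and none past adjustment in limma. Dynll2, the dynein light chain that binds BMF, led these at 1.01 ± 0.43 (SE; adjusted p = 0.757, limma) and 0.55 without CROC+K+M 1. Stat3, at 0.85 ± 0.46, was 0.30 without that library, and Myc was -0.75 ± 0.36.

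The genes whose levels over the 7 libraries were most like those of a member were found by Pearson correlation of log2(FPKM + 1) among 12270 tested genes. They were Zbtb25 (0.990), Vps39 (0.982) and Shcbp1l (0.957) for Bcl2l1, and Dirc2 (0.971), Mrps23 (0.958) and Psmd9 (0.954) for Bcl2l10. For Pmaip1 they were A230056P14Rik (0.939), Themis3 (0.938) and 1110038B12Rik (0.931). The values describe 7 points that share libraries and depth, chosen as the highest of 12270, and carry no test.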

How the data were processed

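The authors deposited 1 FPKM value per gene and library; the build mm9, R 3.3.2, Cuffnorm, Cufflinks 2.2.1 and STAR 2.5.2b are named in the submitters' processing notes. Annotation and scaling between libraries: neither is given in the sources used here. Cuffnorm can share fragments between near-identical genes. Per the labels, cDNA came from a SMARTer Ultra Low Input kit and libraries from ScriptSeq v2, from RNA with an integrity number above 7.0.

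Groups follow the sample titles. FPKM were used as deposited, as log2(FPKM + 1), which understates changes of low genes. Genes with an FPKM of at least 1 in 2 or more libraries were tested, leaving out 1276 entries for small RNAs and the ribosomal RNA precursor. limma 3.58.1 (intensity trend, R 4.3.3) fitted 7 libraries in 1 model with group as the term and two-sided tests (residual degrees of freedom: 4). Python 3.11.15, scipy 1.17.1, pandas 2.3.3 and matplotlib 3.10.9 did the rest. Total counts per library are unknown. Low FPKM fell on whole multiples of 1 step per gene in 1385 of 1581 low genes (87.6%; tolerance 0.03 steps plus 0.25% per step); relative depth from these steps ran from 1 (FOC+K 1) to 1.56 (CROC+K+M 2), and 1 step was taken as 1 fragment.

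The members, gene lists, motifs and tests were chosen with earlier results of these data known. Named are the members; other family genes with a mean FPKM of at least 1; the 3 genes of smallest unadjusted p per list and comparison, of which some are given by level; and the 3 genes most like Bcl2l1, Bcl2l10 and Pmaip1. Alternatives were other pseudocounts, filters, scalings, weights, a block, a term for Rn45s and leaving out each library.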

Additional observations from a re-analysis of the deposited data

How the results depend on the processing

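Of 384 member values under other settings, 355 kept their direction and their side of the threshold, 27 changed sign and 2 newly passed. No reversed value passed an adjusted p of 0.05 in limma. The direction was fixed in advance for many of the 384. Other filters, fits of only the 2 groups compared and leaving out a library of the third group return the same log2 difference. No main value passed the threshold, so a side could change only by newly passing. The 355 is therefore not a measure of robustness. With library sums made equal, the median log2 difference of all genes moved to -0.30, -0.14 and -0.44 in CROC+K versus FOC+K, CROC+K+M versus CROC+K and CROC+K+M versus FOC+K. In that setting Mcl1 (-0.22) and Bcl2l11 (-0.24) turned in the first comparison, and Mcl1 (-0.56) and Bcl2l10 (-0.43) in the last; 5, 3 and 4 of the 8 members lay above those medians, against 6, 3 and 4 without the scaling. With quantile normalization Mcl1 (-0.16) and Bcl2l10 (-0.51) turned in CROC+K+M versus FOC+K. With a term for high or low Rn45s, the values for CROC+K versus FOC+K were -0.19 for Mcl1, 0.60 for Bok and 0.25 for Bid, and for CROC+K+M versus FOC+K -0.43 for Mcl1, -0.0039 for Bcl2l10 and 1.001 for Bid. Rn45s passed the split of 500 FPKM in both FOC+K libraries and CROC+K 1, and in no other library. Only CROC+K 1 against CROC+K 2 and 3 therefore sets that term. The first values set CROC+K 1 alone against FOC+K. For CROC+K+M versus FOC+K, no libraries of these groups lie on the same side of the split. Library weights gave 0.058 for Bax in CROC+K versus FOC+K. The cause of these changes was not tested.

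Leaving out each library in turn, the log2 difference for CROC+K versus FOC+K ran from -0.025 to 0.26 for Mcl1, -0.31 to 0.31 for Bax and -0.034 to 0.18 for Bcl2l11. For CROC+K+M versus CROC+K it ran from -0.24 to 0.047 for Mcl1, -0.47 to 2.56 for Bax and -0.057 to 0.76 for Bid. For CROC+K+M versus FOC+K it ran from -0.046 to 0.091 for Mcl1, -0.14 to 0.48 for Bcl2l10, -0.47 to 2.56 for Bax and -0.41 to 1.76 for Bok. Genes past the threshold numbered 0 in each comparison under each setting, except without CROC+K+M 2, where 0 to 635 (CROC+K+M versus CROC+K) and 0 to 529 (against FOC+K) give the range over left-out libraries. Those calls rest on CROC+K+M 1 as the lone melatonin library, taken to vary like the other groups; Bax was among them, with limma adjusted p of 0.0228 and 0.0303.

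The log2 ratio of pro-death to pro-survival sums was -4.54, -4.92 and -4.36 in FOC+K, CROC+K and CROC+K+M. Without Bcl2l10 it moved to 0.63, 0.39 and 1.05. Without both Bcl2l10 and Bcl2l11, the members of highest mean level on each side, it was -0.65, -0.97 and 0.25. The last is the mean of 1.53 in CROC+K+M 1 and -1.03 in CROC+K+M 2. In CROC+K+M 1 Bax was the highest pro-death member and was kept, so 1.53 still holds Bax. Deviations of same-numbered libraries from their group means correlated at -0.457 to 0.030. In a group of 2 the deviations mirror each other, so each value returns with its sign turned for the other library. Whether the replicate numbers pair the libraries therefore cannot be decided from these values. With the replicate number as a block, genes at an unadjusted p under 0.05 numbered 96, 707 and 543 in place of 269, 1281 and 793, Bid for CROC+K+M versus CROC+K was -0.057, and no call changed. Bcl2l2, Bak1, Bok and Pmaip1 are limited by depth, at up to 79 fragments a library.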
